A study of Bos grunniens with 3 samples.

Results

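*SPINK5*, *SPINK6*, *SPINK7* and *SPINK9* were followed in the hair follicle libraries of the white yak. They were chosen by symbol from the gene list, where each had 1 row (ENSBGRG00000016553, ENSBGRG00000016994, ENSBGRG00000017405 and ENSBGRG00000017477), and are 4 of 26924 listed genes and 4 of the 9 with a SPINK symbol. The other SPINK rows were *SPINK1*, *SPINK4*, *SPINK8*, *SPINK13* and *SPINK14*, and none of them held more than 48 unique molecular identifiers (UMIs, each a counted RNA molecule) in a library. In the RefSeq annotation of Bos grunniens (assembly Bosgru_T2T1.0), 3 of the 4 genes were found by symbol. *SPINK7* and *SPINK9* are direct coding neighbours, and *SPINK13* lies on the other side of *SPINK7*. The direct coding neighbours of *SPINK5* are other genes, and its distance from *SPINK7* and *SPINK9* was not measured. *SPINK6* was not matched there. The libraries were made with the 10x Genomics 3′ v2 protocol from scapular skin of healthy, untreated Tianzhu white yak about 2 years old, from which follicles were pulled after dispase and dissociated with trypsin. There was 1 library in anagen (hair growth), 1 in catagen (regression) and 1 in telogen (rest). The published study covers anagen and catagen and does not describe the telogen library. Its methods name 3 animals and do not tie them to libraries. This leaves no measure of the spread between animals, and no test was made. Intervals are 95% and cover counting error only, and stage, library and processing run cannot be told apart. The library labelled catagen takes its stage from its title and stage label, while its protocol field mentions anagen.

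The SPINK family holds secreted inhibitors of serine proteases with Kazal-type domains. In cornified epithelia their best known targets are the kallikrein-related peptidases (KLKs), which cut the desmosomal proteins that hold the outer keratinocytes together. *SPINK5* encodes LEKTI, a long inhibitor that is cleaved into fragments acting on *KLK5*, *KLK7* and *KLK14*, and its loss causes Netherton syndrome, in which skin sheds too early and the hair shaft is fragile. *SPINK6* and *SPINK9* encode short inhibitors with 1 Kazal domain that act on kallikreins, *SPINK9* mainly on *KLK5*. *SPINK7* was first described in the oesophagus, where it is lost in inflamed epithelium.

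After cells with fewer than 200 detected genes had been left out, 11987 anagen, 12062 catagen and 14502 telogen cells remained, with 82816430, 51537357 and 103430933 UMIs. The median cell held 5256 UMIs in anagen, 3350 in catagen and 5584 in telogen. The libraries shared 40 to 49 barcodes by pair, at most 0.404% of a library. The label of hair follicle was checked by marker lists. Suprabasal epidermal markers, *KRT1* and *KRT10* among them, summed to 13985 to 17187 CPM and basal epidermal markers to 12405 to 22848 CPM, above the follicle lists. Inner root sheath markers summed to 981 to 2311 CPM (counts-per-million, UMIs scaled to the total of the library) and hair cortex markers to 319 to 1028 CPM. Larger follicle sums came from companion layer markers, at 3973 to 6541 CPM, and upper follicle markers, at 3753 to 6523 CPM, lists that share *KRT17*. Bulge or hair germ markers summed to 1942 to 2029 CPM. Endothelial, mesenchymal and immune markers each summed to at most 37.6 CPM in any library.

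*SPINK5* was at its highest in catagen, and *SPINK7* and *SPINK9* at their lowest. The level of *SPINK5* was 769 CPM (763 to 775) in anagen, 1593 CPM (1582 to 1604) in catagen and 942 CPM (936 to 948) in telogen, from 63717 to 97456 UMIs. *SPINK7* had 43.8 CPM (42.4 to 45.3) in anagen, 2.54 CPM (2.13 to 3.02) in catagen and 13.2 CPM (12.5 to 13.9) in telogen. *SPINK9* had 24.8 CPM (23.7 to 25.9) in anagen, 5.55 CPM (4.92 to 6.23) in catagen and 48.2 CPM (46.9 to 49.6) in telogen. The order of stages thus differed between the genes, and within each of these genes no pair of intervals overlapped. In such sums of a whole library, fewer cells of a type and less RNA per cell cannot be told apart. *SPINK6* had 21.0 CPM (20.1 to 22.1) in anagen, 14.3 CPM (13.3 to 15.4) in catagen and 14.8 CPM (14.0 to 15.5) in telogen, so that its catagen and telogen intervals overlapped.

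**Figure D1:**
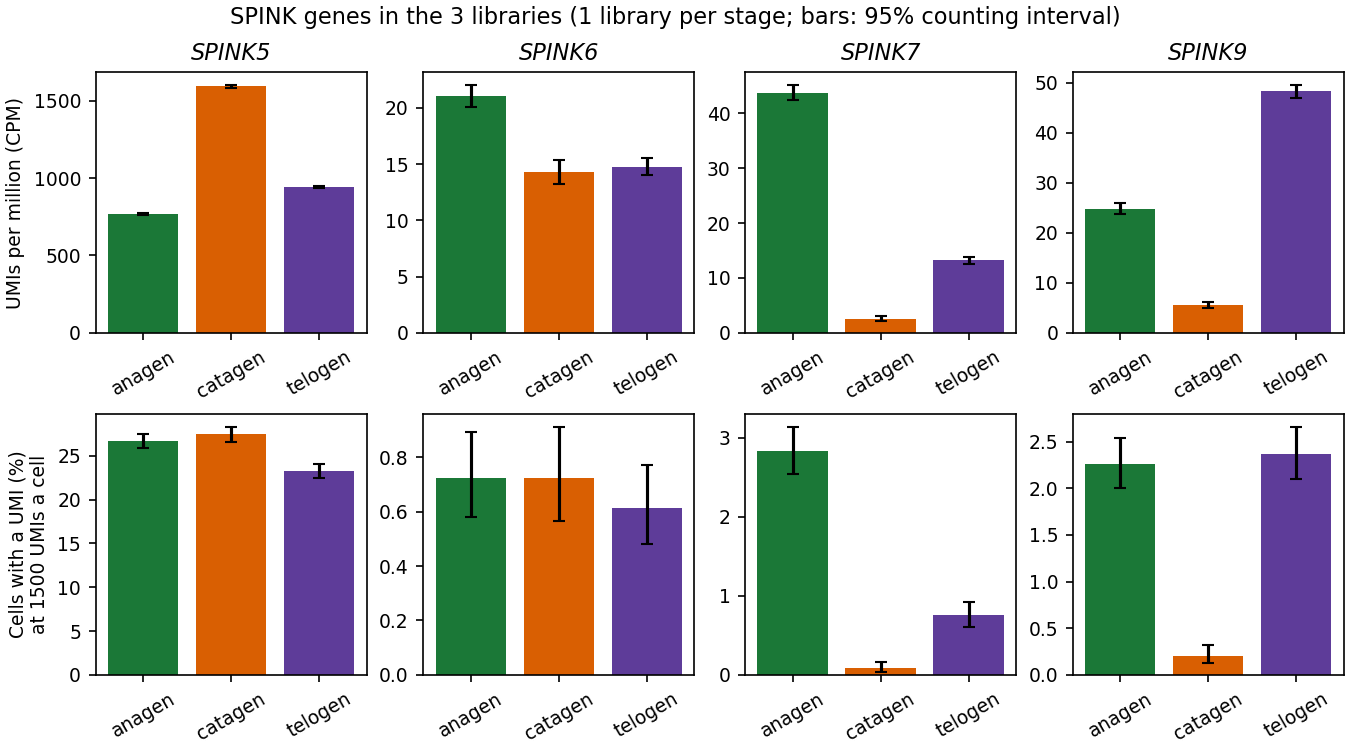
Level (upper row, CPM) and share of cells with a UMI after thinning each cell to 1500 UMIs (lower row, percent) of the 4 SPINK genes in the anagen, catagen and telogen libraries, 1 library each; bars show 95% counting intervals. *SPINK7* fell from 43.8 CPM in anagen to 2.54 CPM in catagen, whereas *SPINK5* was 1593 CPM in catagen with a share of cells close to that in anagen.

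Between catagen and anagen, 1 of the 4 genes was at least 2-fold higher and 2 were at least 2-fold lower, where 4.41% of all genes with at least 10 CPM in either library were higher and 3.47% were lower. *SPINK7* was 17.2-fold lower in catagen (log2 ratio -4.11, -4.37 to -3.86) and *SPINK9* was 4.46-fold lower (-2.16, -2.34 to -1.98). Both were further apart as a mean over cells, with log2 ratios of -5.05 for *SPINK7* and -3.05 for *SPINK9*. Without the 5 highest cells of each gene in each library, a choice made after seeing the data, they were -5.57 and -3.57. Those 5 cells held 67.2% of *SPINK7* UMIs in catagen and 9.37% in anagen, and 67.5% and 13.5% of *SPINK9* UMIs. Leaving them out thus lowers catagen more, and the wider ratios follow from that step. *SPINK5* was 2.07-fold higher (1.05, 1.03 to 1.06), but its log2 ratio was 0.80 with median-of-ratios scaling and 0.76 as a mean over cells, both under the limit. The ratio of *SPINK6* was -0.56 (-0.69 to -0.43) on the log2 scale, and it turned to 0.21 once the 5 cells with the highest count of each gene were left out of each library, a choice made after seeing the data.

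In telogen over anagen, 0 of the 4 genes were at least 2-fold higher and 1 was at least 2-fold lower, against 3.0% and 7.83% of all genes. The gene that was lower was *SPINK7*, by 3.32-fold (log2 ratio -1.73, -1.82 to -1.64). *SPINK9* was 1.95-fold higher in telogen (0.96, 0.89 to 1.04), close to the limit, and its log2 ratio was 1.21 with median-of-ratios scaling. In telogen over catagen, 2 of the 4 were at least 2-fold higher and 0 lower, where 4.1% and 12% of all genes were. These were *SPINK9*, with a log2 ratio of 3.12 (2.95 to 3.30), and *SPINK7*, with 2.38 (2.12 to 2.65). On the log2 scale both were thus nearer to anagen than to catagen in telogen, but for *SPINK7* this turned in cells with at least 1000 detected genes, with -1.98 for telogen over anagen and 1.75 for telogen over catagen. *SPINK5* was 1.69-fold lower in telogen than in catagen (log2 ratio -0.76, -0.77 to -0.74).

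The scaling touched every ratio. Over all genes seen in both libraries, the median log2 ratio was 0.28 for catagen over anagen, -0.26 for telogen over anagen and -0.51 for telogen over catagen. Relative to that median, *SPINK5* was 0.77 higher and *SPINK7* lay at -4.38 in catagen over anagen. Relative to the median of telogen over catagen, *SPINK5* lay at -0.25 and *SPINK9* at 3.63 on the log2 scale. These medians include genes with very few UMIs. Among genes with at least 10 CPM in either library the medians were smaller, at 0.05, -0.18 and -0.25. Against those, *SPINK5* lay further above the median in catagen over anagen and further below it in telogen over catagen. In the same comparisons *SPINK7* and *SPINK9* lay somewhat nearer, whereas *SPINK7* lay slightly further off in telogen over anagen.

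The share of cells did not follow the level for *SPINK5*. With each cell thinned to 1500 UMIs, which left out 2263 catagen, 2932 telogen and 0 anagen cells, 26.7% of anagen cells (25.9 to 27.5), 27.5% of catagen cells (26.6 to 28.3) and 23.3% of telogen cells (22.5 to 24.0) had a *SPINK5* UMI. Unthinned, these shares were 43.1%, 36.0% and 36.2%. The mean count in a *SPINK5*-positive cell was 12.3 UMIs in anagen, 18.9 in catagen and 18.6 in telogen, with the lowest depth per cell in catagen. The *SPINK7* share was 2.83% (2.54 to 3.14) in anagen, 0.0816% (0.0353 to 0.161) in catagen and 0.752% (0.603 to 0.927) in telogen, and unthinned it was 5.61%, 0.199% and 1.71%. For *SPINK9* it was 2.26% (2.00 to 2.54), 0.204% (0.125 to 0.315) and 2.37% (2.1 to 2.66), and unthinned 5.57%, 0.398% and 5.10%. *SPINK7* and *SPINK9* were thus found in fewer catagen cells, whereas the *SPINK6* share was similar in all libraries, at 0.726% (0.582 to 0.894), 0.725% (0.566 to 0.913) and 0.614% (0.480 to 0.773), and unthinned 1.69%, 1.18% and 1.30%.

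As a rough measure of background such as free RNA, cluster 23 was taken, a mixed group led by *COL1A2*, *VIM* and *PECAM1*. It had 98, 48 and 52 cells and median depths of 3616, 1741 and 3697 UMIs. Keratinocyte inhibitors should be missing from these cells. At 1500 UMIs, *SPINK5* was found in 11.2% of them in anagen (5.74 to 19.2), 17.9% in catagen (6.06 to 36.9) and 8.70% in telogen (2.42 to 20.8). *SPINK6* was found in 0 of 98 anagen cells, which allows a share of up to 3.06% (3 of the 98 cells), and *SPINK7* and *SPINK9* in 1.02% each (0.0258 to 5.55). A *SPINK5* share of that size is therefore read as background below, and shares of *SPINK7* and *SPINK9* up to 5.55% in anagen cannot be told from it. In catagen and telogen *SPINK6*, *SPINK7* and *SPINK9* were found in 0 of 28 and 0 of 46 of these cells, which allows shares of up to 10.7% and 6.52%.

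*SPINK6* was held by very few cells. In anagen, 3 of 11987 cells carried at least 50% of its UMIs and the highest cell carried 507. In catagen it took 7 cells, with 92 UMIs in the highest, and in telogen 3 cells, with 633 in the highest. Cells with at least 10 *SPINK6* UMIs numbered 12, 17 and 27, and they held 85.5%, 76.1% and 79.2% of its UMIs. The other genes were spread more widely in anagen and telogen: at least 50% of the UMIs lay in 309, 228 and 266 cells for *SPINK5*, in 52, 3 and 15 for *SPINK7* and in 63, 3 and 30 for *SPINK9*, in anagen, catagen and telogen. The catagen values of *SPINK7* and *SPINK9* rest on 24 and 48 cells with a UMI.

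**Figure D2:**
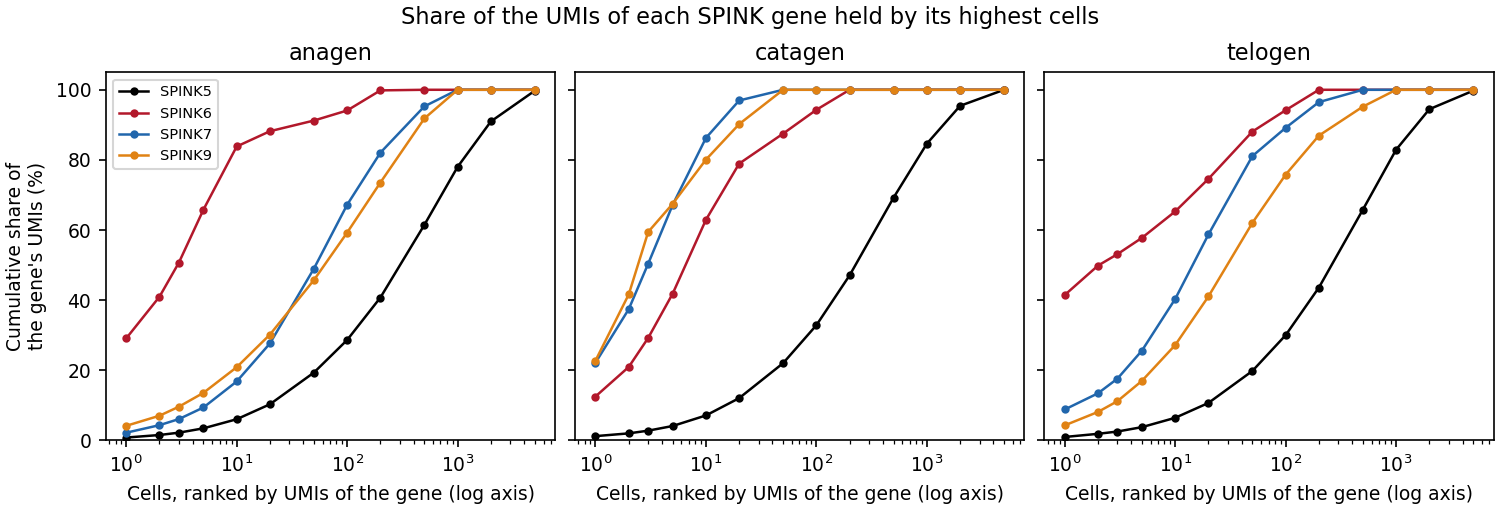
Cumulative share of the UMIs of each SPINK gene (percent) over cells ranked by their count of that gene (log axis), in each library. The 10 highest cells held 83.8% of *SPINK6* UMIs in anagen, 62.9% in catagen and 65.3% in telogen, against 6.02%, 7.10% and 6.43% of *SPINK5* UMIs.

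The cells of all libraries were grouped into 27 clusters with the SPINK genes and the protease list left out of the genes used. Cluster 19 was suprabasal-like (*KRT1*, *KRT10*, *KRTDAP*, *SBSN* and *KRT77* raised) and was led by *CNFN*, a cornified envelope gene, with 226 anagen, 196 catagen and 118 telogen cells. Cluster 6 was also suprabasal-like, led by *S100A12*, *KRT1* and *KRT10*, and cluster 1 was upper follicle-like, led by *KRT79* and *KRT17*. Cluster 16 was hair cortex-like, led by *KRT85* and *KRT35*. Clusters 15 (*SLC15A1*, *KRT23*, *KLK6*), 17 (*FGF18*, *PMP22*, *KRT75*) and 20 (*KRT75*, *TF*, *KLK10*) did not meet the rule for a name and are called by number. The rule asked for 3 raised markers of a class, and for a marker of that class among the leading genes of the cluster. The companion layer and granular lists had only 2 with a row each, so neither name could be given. Cluster 15 had the upper follicle markers *KRT79*, *KRT17*, *LRIG1* and *GATA6* raised. Cluster 17 had the bulge or hair germ markers *LHX2*, *SOX9*, *LGR5*, *SFRP1* and *CXCL14* raised. None of these was among the leading genes of its cluster, so those names were not given either. Both companion layer markers, *KRT75* and *KRT17*, were raised in clusters 17 and 20. Both granular markers, *CNFN* and *ASPRV1*, were raised in cluster 19. Cluster 20 held 155, 206 and 138 cells. Cluster 17 held 47 cells in anagen, under the 50 set for a comparison.

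*SPINK5* was spread over several clusters, whereas the 2 leading clusters of *SPINK6* held at least 63.5% and those of *SPINK7* at least 82.0% of their UMIs in each library. The 2 leading clusters of *SPINK9*, 20 and 19, held 38.4% in anagen, 80.4% in catagen and 54.0% in telogen. The mean over libraries of *SPINK5* was 8491 CPM ± 2728 (SD over 3 libraries) in cluster 20, 8340 ± 3857 in cluster 19, 5894 ± 3429 in cluster 17 (2 libraries), 3118 ± 833 in cluster 15 and 2026 ± 734 in cluster 1. Each of these overlapped the next in range, but the ranges also hold the difference between stages. Within each library cluster 15 was above cluster 1. Clusters 20 and 19 together held 33.3% of *SPINK5* UMIs in anagen, 47.4% in catagen and 29.7% in telogen. Cluster 1 held a further 18.4%, 15.2% and 32.4%. In cluster 19, at 1500 UMIs, *SPINK5* was found in 97.3% of anagen and 95.6% of telogen cells and in all 189 catagen cells. In the hair cortex-like cluster 16 it was found in 10.1%, 8.42% and 5.84%, which is no more than the background share.

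**Figure D3:**
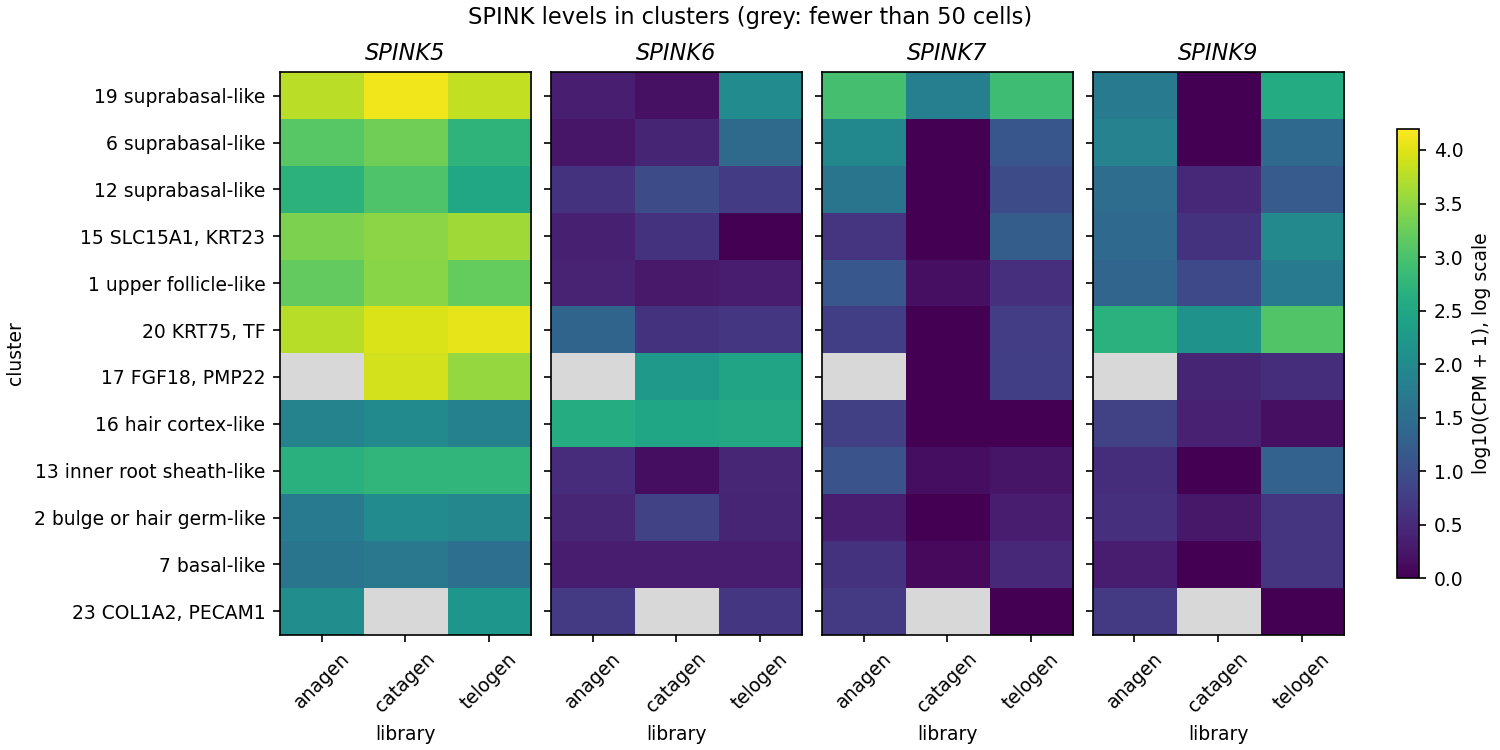
Level of each SPINK gene as log10(CPM + 1) (color, log scale) in 12 clusters (rows, with a name or leading genes) and 3 libraries (columns); grey marks fewer than 50 cells. *SPINK5* is high from the suprabasal-like to the *KRT75* clusters, *SPINK7* is centred on cluster 19, *SPINK9* on cluster 20 and *SPINK6* on clusters 16 and 17.

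*SPINK7* marked the *CNFN*-led cluster 19. Its level there was 919 CPM (880 to 958) in anagen, 63.8 CPM (52.9 to 76.3) in catagen and 793 CPM (745 to 843) in telogen. The cluster held 59.0%, 91.6% and 76.0% of all *SPINK7* UMIs. At 1500 UMIs, 41.2% of anagen cells (34.7 to 47.9), 3.70% of catagen cells (1.5 to 7.48) and 32.7% of telogen cells (24.2 to 42.2) of the cluster had a UMI. The catagen share lay within the background bound, which is wide because few cells set it. Unthinned, 5 catagen cells of the cluster had at least 10 *SPINK7* UMIs and held 88, with 29 in the highest. In the other suprabasal-like cluster 6, *SPINK7* had 91.4 CPM in anagen, 12.3 CPM in telogen and 0 UMIs in 808 catagen cells. At 3 counts this allows up to 0.564 CPM. In cluster 20 it had at most 9 UMIs in any library.

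*SPINK9* was highest in the *KRT75* cluster 20, next to *KLK10* and *KLK12*. Its level there was 478 CPM (442 to 516) in anagen, 140 CPM (123 to 159) in catagen and 1161 CPM (1113 to 1211) in telogen. At 1500 UMIs it was found in 29.7% (22.6 to 37.5), 4.23% (1.84 to 8.17) and 28.2% (20.5 to 37.0) of the cells. Here too the catagen share lay within the wide background bound. Unthinned, 6 catagen cells of the cluster had at least 10 *SPINK9* UMIs and held 203, with 65 in the highest. Cluster 20 held 32.0% of *SPINK9* UMIs in anagen, 80.4% in catagen and 44.0% in telogen. In anagen the largest share, 35.5%, lay in cluster 6, at 71.2 CPM. In telogen, 19.8% lay in the upper follicle-like cluster 1, at 51.2 CPM. The mean over libraries was 593 CPM ± 520 in cluster 20 and 146 CPM ± 206 in cluster 19, and these ranges overlapped. The ranges also hold the difference between stages. Within each library cluster 20 was the higher of them, at 140 CPM against 0 in catagen and 1161 against 382 CPM in telogen.

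*SPINK6* was highest in the hair cortex-like cluster 16 and in cluster 17, and close to 0 in the suprabasal-like clusters of anagen and catagen. Its level in cluster 16 was 404 CPM (384 to 424) in anagen, 304 CPM (275 to 334) in catagen and 341 CPM (317 to 367) in telogen. In cluster 17 it was 187 CPM (163 to 214) in catagen and 287 CPM (251 to 326) in telogen. Clusters 16 and 17 held 88.9%, 86.8% and 63.5% of its UMIs. No cluster with at least 50 cells in a library reached their range: the next by mean, cluster 19, had 1.29 CPM in anagen, 0.532 CPM in catagen and 107 CPM in telogen. Of the telogen UMIs in cluster 19, 128 of 140 came from 1 cell. Cluster 6 had 27.3 CPM in telogen, where 8 cells with at least 10 UMIs held 110 of its 183 UMIs. The telogen level of cluster 16 also rested largely on 1 cell. There 6 cells with at least 10 *SPINK6* UMIs held 701, of which 633 were in the highest cell. That cell held 41.5% of all *SPINK6* UMIs in telogen, so the telogen rank of cluster 16 and the 63.5% depend on it.

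Cells with many *SPINK6* UMIs differed from the rest of cluster 16 in their hair keratins, which did not all go the same way. The 26 cells with at least 10 *SPINK6* UMIs, over all libraries, were set beside the 741 cells of the cluster with none. They had a median of 12937 UMIs against 6894. *KRT85*, a hair keratin and cortex marker, was at 44040 CPM in them and 10501 CPM in the others. *KRT34*, a further hair keratin, was at 307 and 0.481 CPM, and *KAP11.1*, a keratin-associated protein gene, was at 1736 and 18.3 CPM. Unlike *KRT85*, the other cortex markers raised in the cluster, *LEF1*, *HOXC13* and the hair keratin *KRT35*, were lower in them. *LEF1* was at 103 and 201 CPM, *HOXC13* at 63.1 and 141 CPM and *KRT35* at 335 and 756 CPM. These cells were chosen by their *SPINK6* count and the genes named after their values were seen, so this is a description.

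Cells were also ranked, without clusters, by the share of their UMIs from the suprabasal genes *KRT1*, *KRT10*, *KRTDAP* and *SBSN* and split into 10 bins of equal size. *SPINK5* fell from 2672 CPM in the highest bin to 26.6 CPM in the lowest in anagen, from 5355 to 53.0 CPM in catagen and from 2179 to 21.8 CPM in telogen. *SPINK7* went from 259 to 0.936 CPM, from 15.8 to 0.294 CPM and from 72.2 to 0.442 CPM. *SPINK9* went from 81.0 to 1.12 CPM in anagen and from 115 to 1.62 CPM in telogen. It did not fall evenly: in telogen it was at 122 CPM in bin 2 and 127 CPM in bin 3, and in catagen at 3.91 CPM in bin 1 and 34.9 CPM in bin 2. *SPINK7* in telogen was at 4.57 CPM in bin 3 and 17.6 CPM in bin 4. The upper 40% of cells held 90.9%, 97.5% and 83.1% of *SPINK5* UMIs, and 92.5% to 97.2% of those of *SPINK7* and *SPINK9* over the libraries. *SPINK6* did not follow the ranking: the upper 40% held 12.5%, 35.1% and 40.1% of its UMIs, and in anagen its highest value, 117 CPM, was in the lowest bin.

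This ordering depended on the genes used to rank. With *KRT1* and *KRT10* alone, the upper 40% held 70.8%, 61.6% and 53.0% of *SPINK5* UMIs in anagen, catagen and telogen. For *SPINK7* the shares were 95.2%, 44.3% and 40.3%, and for *SPINK9* 69.5%, 33.6% and 42.8%. The number of genes with at least 50% of their UMIs there was 3 in anagen under both rankings and fell from 3 to 1 in catagen and in telogen.

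**Figure D4:**
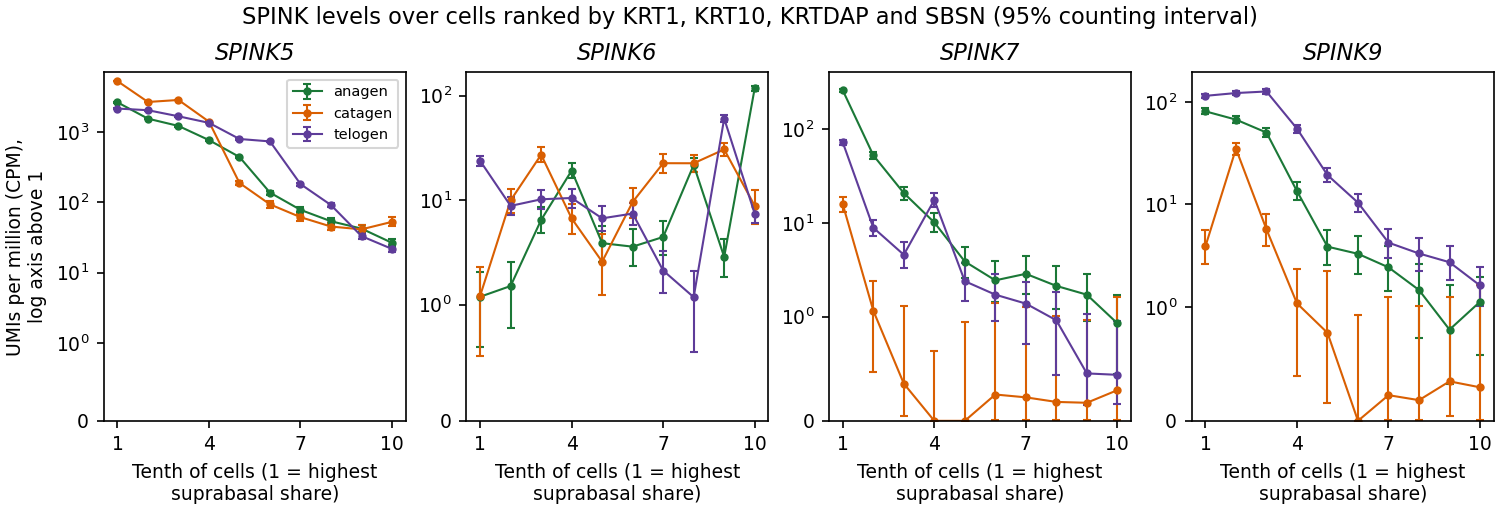
Level of each SPINK gene (CPM, log axis above 1) in 10 bins of cells ranked by the share of *KRT1*, *KRT10*, *KRTDAP* and *SBSN*, from the highest share (1) to the lowest (10), in each library, with 95% counting intervals. In anagen *SPINK5*, *SPINK7* and *SPINK9* are highest in bin 1 and *SPINK6* in bin 10, at 117 CPM; in telogen *SPINK9* is highest in bin 3, at 127 CPM.

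Within their leading clusters the genes kept different stage profiles. In cluster 19, catagen over anagen, 1 of 3 SPINK genes with at least 10 CPM was at least 2-fold higher and 2 were lower, where 13.7% of all genes in the cluster were higher and 7.74% were lower. *SPINK5* was 2.19-fold higher in catagen (log2 ratio 1.13, 1.10 to 1.16). *SPINK7* was 14.4-fold lower (-3.85, -4.13 to -3.58). *SPINK9* fell from 130 UMIs in anagen to 0 in catagen, at least 35.0-fold lower when set against 3 counts. In cluster 20, 0 of 3 were at least 2-fold higher and 2 were lower, against 15.7% and 5.68% of all genes. *SPINK9* was 3.41-fold lower there in catagen (-1.77, -1.99 to -1.55), and *SPINK6*, with 5 against 30 UMIs, was also lower, but 26 of those 30 came from 1 anagen cell, on which its call rests. *SPINK5* was 1.64-fold higher (0.71, 0.67 to 0.75).

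Telogen against anagen also differed by cluster. In cluster 19 *SPINK7* was nearly level, with a log2 ratio of -0.21 (-0.32 to -0.10), whereas in cluster 6 it was 7.46-fold lower in telogen (-2.90, -3.24 to -2.57). *SPINK9* was 6.85-fold higher in cluster 19 (2.78, 2.49 to 3.07) and 2.43-fold higher in cluster 20 (1.28, 1.16 to 1.41), and it was 2.68-fold lower in cluster 6 (-1.42, -1.67 to -1.18). The clusters are small, and whether their cells are of the same state in each library was not tested.

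*SPINK5* accompanied *SPINK7* and *SPINK9* in the same cells. At 1500 UMIs in anagen, 72.9% of 339 *SPINK7*-positive cells had *SPINK5* (67.8 to 77.5), against 25.4% of cells without *SPINK7*. Of 271 *SPINK9*-positive cells, 75.6% had *SPINK5* (70.1 to 80.6), against 25.6%. In telogen the shares were 73.6% of 87 *SPINK7*-positive cells against 22.9%, and 74.5% of 274 *SPINK9*-positive cells against 22.0%. In catagen *SPINK5* was found in 8 of 8 *SPINK7*-positive and 17 of 20 *SPINK9*-positive cells, against 27.4% and 27.3% of the cells without them. *SPINK6*-positive cells differed from this. They had *SPINK5* in 25.3% of 87 cells in anagen (16.6 to 35.7), against 26.7% of the rest, and in 36.6% of 71 cells in telogen (25.5 to 48.9), against 23.2% (22.4 to 24.0).

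*SPINK7* and *SPINK9* overlapped less. In anagen *SPINK9* was found in 8.26% of *SPINK7*-positive cells (5.56 to 11.7) and in 2.09% of the rest. In telogen it was found in 24.1% (15.6 to 34.5) and in 2.20% of the rest. In catagen 0 of 8 *SPINK7*-positive cells had *SPINK9*. Of the 6 pairs of SPINK genes, 3 in anagen, 2 in catagen and 3 in telogen were at least 2-fold more frequent together than apart. This count was not set beside other gene pairs, and in catagen it rests on 8 *SPINK7*-positive and 20 *SPINK9*-positive cells. Doublets were left in, and their part in shared detection was not tested. No cell had all 4 genes, and 28, 0 and 21 cells had 3 of them.

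**Figure D5:**
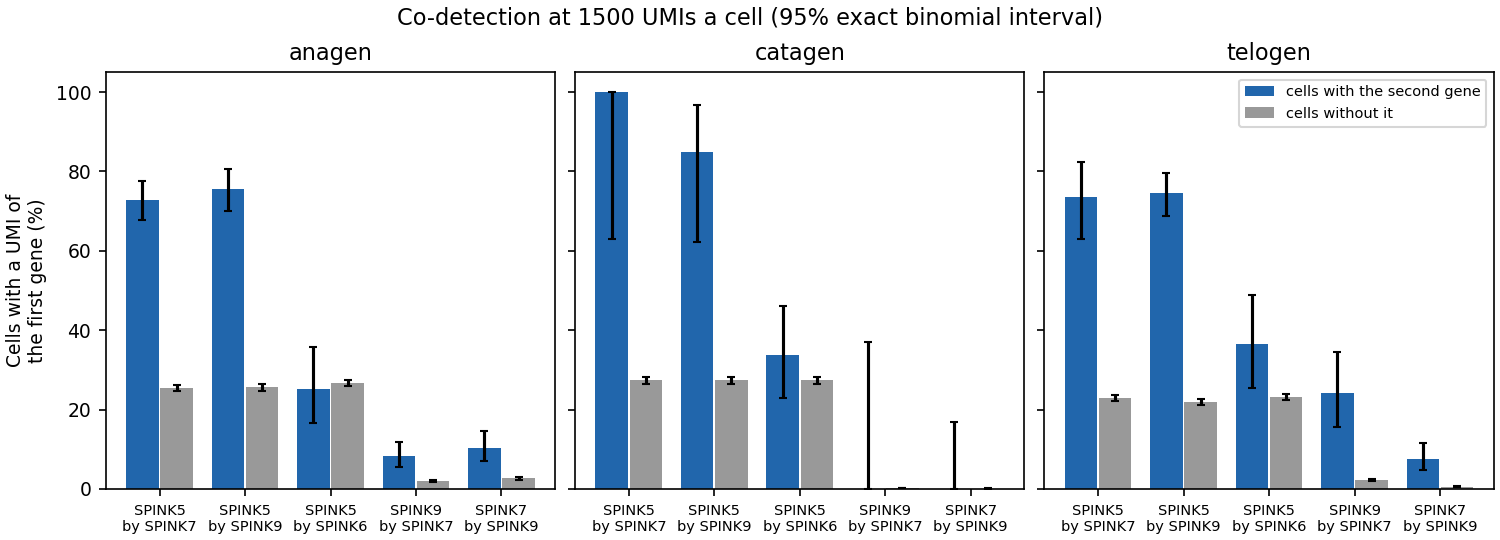
Share of cells (percent) with a UMI of the gene named first among cells with (blue) and without (grey) a UMI of the gene named after it, in each library at 1500 UMIs a cell, with exact 95% intervals. *SPINK5* stands at 72.9% or more among *SPINK7*-positive and *SPINK9*-positive cells of all libraries, and at 25.3% among *SPINK6*-positive anagen cells.

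Part of this pairing held inside a cluster. In anagen cluster 20, all 46 *SPINK9*-positive cells had *SPINK5*, against 50.5% of the other cells of the cluster. In cluster 6 of anagen, 83.5% of 103 *SPINK7*-positive cells had *SPINK5*, against 60.4%. In cluster 19 nearly every cell had *SPINK5*, so the pairing could not be read there. *SPINK9* and *SPINK7* shared 8 cells in anagen cluster 19, which were 66.7% of the *SPINK9*-positive cells, while 39.7% of the other cells had *SPINK7*. With so few *SPINK9*-positive cells, these shares are not read as different.

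The partner proteases were looked at in the same cells, a choice made after the values were seen. In anagen *SPINK7* was found in 33.7% of *KLK5*-positive cells (28.7 to 39.0) and in 1.93% of the rest. Within cluster 19 the shares were 62.7% and 20.7% in anagen and 58.9% and 7.02% in telogen. In cluster 20 *SPINK9* was found mostly with *KLK7* and *KLK10*. In anagen it was found in 46 of 94 *KLK7*-positive cells and in 0 of 61 without, and in telogen in 35 of 97 and in 0 of 27. With *KLK10* the shares were 48.9% and 1.59% in anagen, and 32.1% and 5.56% in telogen.

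Of 45 genes on a list of epidermal proteases, their substrates and other inhibitors, 34 had a row. With at least 10 CPM in either library, 15 could be counted in catagen over anagen. Of these, 4 were at least 2-fold higher and 3 lower, where 4.41% and 3.47% of all genes at that level were. The list had a median log2 ratio of 0.01 beside the 0.05 of all genes at that level. *KLK5*, the trypsin-like protease that LEKTI restrains, was at 45.4, 5.26 and 52.0 CPM in anagen, catagen and telogen. *KLK11* was at 50.6, 23.8 and 56.8 CPM. Both were thus low in catagen, as *SPINK7* and *SPINK9* were. *KLK7*, the chymotrypsin-like partner of *KLK5*, was at 389, 197 and 838 CPM, and its catagen over anagen log2 ratio of -0.98 was just inside the limit. The other gene at least 2-fold lower was *KLK6*, which the naming rule adds through its likeness to *SPINK9*, at 13.2, 1.59 and 24.1 CPM. *KLK12*, added in the same way and the gene closest to *SPINK9*, was not low in catagen, at 24.1, 24.3 and 41.2 CPM.

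The desmosomal substrates were highest in catagen. *DSC1*, a desmosomal cadherin, was at 67.8 CPM in anagen, 137 in catagen and 79.9 in telogen, and was 1 of the 4 genes at least 2-fold higher in catagen. *DSG1*, its partner cadherin and a kallikrein substrate, was at 416, 763 and 566 CPM (log2 ratio 0.88 in catagen over anagen). The other 3 at least 2-fold higher, named after their values were seen, were the protease *CTSV* (log2 ratio 1.46) and the inhibitors *SERPINA12* (1.95) and *SERPINB12* (1.34). With median-of-ratios scaling the count of list genes at least 2-fold higher, under the same limit of 10 CPM, was 2. *KLK10*, *SPINT2*, *SERPINB5* and *SERPINB8* stayed within 2-fold in that comparison, with log2 ratios of -0.08, 0.42, -0.18 and 0.45.

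In telogen over anagen 1 of 13 list genes was at least 2-fold higher, *KLK7* (log2 ratio 1.11), and 0 were lower. Of all genes, 3.0% were higher and 7.83% lower, and the list median was 0.35 beside the -0.18 of all genes. In telogen over catagen 4 of 15 were higher, *KLK5* (3.31), *KLK6* (3.92), *KLK7* (2.09) and *KLK11* (1.25). In that comparison 1 was lower, *SERPINA12* (-2.59, named after its value was seen). Of all genes, 4.1% were higher and 12% lower there, and the list median was 0.28 beside -0.25.

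The same contrast was seen inside cluster 19. There *KLK5* was at 994 CPM in anagen, 70.7 in catagen and 1396 in telogen, and *KLK7* at 1779, 418 and 4562. *DSG1* was at 1315, 2783 and 1772 CPM and *DSC1* at 314, 784 and 461. *SPINK5*, *DSG1* and *DSC1* were thus highest in catagen in this cluster, and *KLK5*, *KLK7*, *SPINK7* and *SPINK9* lowest. In cluster 20, *KLK5*, *KLK7* and *SPINK9* were again lowest and *DSG1* highest in catagen. *KLK7* was at 4542, 3622 and 8124 CPM and *KLK5* at 132, 46.9 and 184, and *DSG1* at 614, 1480 and 892 CPM. *KLK6* was at 316, 26.8 and 294 CPM. *DSC1* was low there, at 29.1, 25.0 and 23.3 CPM. *KLK10*, at 1996, 2769 and 3688 CPM, and *KLK12*, at 251, 636 and 1061 CPM, were lowest in anagen instead, and *SPINK5* was highest in telogen.

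The genes most like each SPINK gene were taken over 68 points, each a cluster in a library with at least 50 cells, by Pearson's r of log2(CPM + 10) among 5002 genes. The points share libraries, so r is a description. *SPINK5* was closest to *LY6G6C* (r = 0.94), *SBSN* (0.92), *SULT2B1* (0.87), *RAB11FIP1* (0.87) and *TEC* (0.86). *SPINK7* was closest to *LYPD2* (0.90), *IL1A* (0.83), *DGAT2* (0.82), *KLK5* (0.78) and *CNFN* (0.77). Of the 5 closest to *SPINK9*, 4 were kallikreins: *KLK12* (0.88), *KLK5* (0.83), *KLK6* (0.81) and *KLK7* (0.80), with *FKBP1B* at 0.80. *SPINK6* was less close to any gene, with *LY6G6D* (0.69), *IL1F10* (0.68), *RNF34* (0.68), *VSIG8* (0.68) and *SMPDL3B* (0.63), and none of these 5 remained among its closest by Spearman correlation or in telogen clusters alone. Among the SPINK genes themselves, r was 0.63 for *SPINK5* and *SPINK9*, 0.48 for *SPINK7* and *SPINK9* and 0.44 for *SPINK5* and *SPINK7*, and 0.15 or less for *SPINK6* with each of the others.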

How the data were processed

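The authors deposited raw counts: whole numbers of UMIs per gene and cell barcode, not normalized, from 10x Genomics 3′ v2 libraries of 3 hair cycle stages. The submitters' processing notes name Cell Ranger 2.1.1, whereas the file headers name 4.0.0 (anagen), 3.1.0 (catagen) and 6.0.2 (telogen). The genome build is not given in the sources used here. Since the stages were run with other versions, gene counting can differ between them.

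Barcodes under 200 detected genes were dropped. UMIs were summed and given as CPM. Levels carry exact Poisson intervals, ratios exact conditional binomial intervals and shares exact Clopper-Pearson intervals, all at 95%. Where a count was 0, the value said to be allowed is 3 counts over the total, which is lower than the exact upper limit. A fold of 2 was the limit for a call, among genes with at least 10 CPM in either library. Cells were thinned at random to 1500 UMIs for shares. Seurat 5.3.0 in R 4.3.3 integrated the libraries by canonical correlation (2000 variable genes, of which 1976 were kept once the SPINK genes and the protease list were left out, 30 components, 20 neighbours, resolution 0.8). A cluster was named where at least 3 markers of a class were raised 1.5-fold (10 CPM added) and at least 1 was among its 10 leading genes, a rule set after the clusters were seen. Of 91 markers, 74 had a row. The companion layer and granular lists had 2 each, so the rule could not give these names. Scrublet in scanpy 1.11.5 called 0 cells in each library, so it had not worked and doublets were left in. The other steps used Python 3.11.15, numpy 2.4.6, scipy 1.17.1 and pandas 2.3.3, and the ratio and likeness steps were tested on simulated data.

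All 4 SPINK genes are named. Of the list, genes with at least 50 CPM in a library are named, and for each SPINK gene the 5 most like it. The genes and lists were chosen with earlier results of these data known. Alternatives were other cell filters, scalings, fold limits, thinning depths, clusterings, bins and likeness measures.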

Additional observations from a re-analysis of the deposited data

Results flagged for a closer look

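*SPINK5* took opposite directions between telogen and catagen in its 2 leading clusters, and the difference between the clusters was not tested. In the *KRT75* cluster 20 it was higher in telogen, with a log2 ratio of 0.27 (0.24 to 0.30, counting error only). In the suprabasal-like cluster 19 it was lower in telogen, with a log2 ratio of -0.997 (-1.03 to -0.96). The first rests on 138 telogen and 206 catagen cells and the other on 118 and 196.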

How the results depend on the processing

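Of 151 recomputed counts and shares, 44 moved, by over 1.5 times for a count and outside the counting interval for a share. The other 107 stayed within those limits, some of them with a changed value. With median-of-ratios scaling, the SPINK genes at least 2-fold higher numbered 0 for catagen over anagen and 1 for telogen over anagen, and the list genes 2 and 4. With a mean over cells, they numbered 0 SPINK genes for catagen over anagen, and the list genes 1 higher there, 0 higher for telogen over anagen and 0 lower for telogen over catagen. With at least 1000 detected genes per cell, 1 SPINK gene was higher for telogen over anagen and 2 list genes were lower for telogen over catagen. A limit of 1.5-fold gave 1 SPINK gene higher for telogen over anagen and 1 lower for telogen over catagen, and 5 list genes higher and 3 lower in the same comparisons. Without the highest 5% of Scrublet scores, 2 list genes were higher for telogen over anagen. Since Scrublet had not worked, that setting is no check for doublets. Without the 5 highest cells of each gene, chosen after seeing the data, 1 SPINK gene was higher for telogen over catagen, since *SPINK7* then had 9.81 CPM in telogen, under the level needed to be counted, at a log2 ratio of 3.56. The *SPINK6* log2 ratio of catagen over anagen turned to 0.17 as a mean over cells and to 0.21 without those 5 cells, and that of telogen over anagen turned to 0.029 as a mean over cells.

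Without thinning, 4 pairs were at least 2-fold more frequent together in catagen. The share of UMIs in the 2 leading clusters, a mean over libraries, was 36.8% for *SPINK5*, 79.7% for *SPINK6*, 86.1% for *SPINK7* and 57.6% for *SPINK9*. It moved for *SPINK5* to 37.2% at resolution 0.4, 42.3% at 1.2, 41.1% with each library clustered alone, 39.1% with the genes kept and 33.9% with 15 components. For *SPINK7* it was 87.6% at 1.2, 89.6% alone and 81.6% with the genes kept. For *SPINK9* it was 65.9% at 1.2, 68.7% alone, 67.8% with the genes kept and 72.2% with 15 components. Ranked by *KRT1* and *KRT10* alone, 1 gene in catagen and 1 in telogen had at least 50% of its UMIs in the upper 40% of cells.

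Of the 5 most like genes, Spearman correlation kept 3 for *SPINK5*, 0 for *SPINK6* and 2 for *SPINK7*, and log2(CPM + 1) kept 3 for *SPINK7*. Clusters of anagen alone kept 2 for *SPINK7* and 2 for *SPINK9*. Those of catagen alone kept 3 for *SPINK5*, 3 for *SPINK6*, 2 for *SPINK7* and 2 for *SPINK9*, and those of telogen alone 0 for *SPINK6*, 3 for *SPINK7* and 2 for *SPINK9*. The cause of these changes was not tested. No paired analysis was possible because each stage has 1 library. In catagen *SPINK7* and *SPINK9* were limited by depth and number, with 131 and 286 UMIs.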

Other observations

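*SPINK5* was also counted in the inner root sheath-like cluster 13, led by *KRT27*, *KRT71* and *KRT25*. Its level there was 461 CPM (443 to 480) in anagen, 584 CPM (553 to 617) in catagen and 589 CPM (561 to 619) in telogen. At 1500 UMIs it was found in 29.2% (25.4 to 33.3), 21.2% (15.9 to 27.4) and 25.2% (17.7 to 34.0) of the cells. In the background cluster 23 the shares were 11.2% (5.74 to 19.2), 17.9% (6.06 to 36.9) and 8.70% (2.42 to 20.8). By share alone, the catagen cells thus cannot be told from background. In anagen, 33 of the 537 cells had at least 10 *SPINK5* UMIs and held 1574 of the 2337 UMIs of the cluster. In catagen, 20 of the 248 cells had at least 10 and held 1099 UMIs, with 231 in the highest cell. In telogen, 24 of the 150 cells had at least 10 and held 1441 UMIs, with 597 in the highest cell.

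Cluster 26, led by *CYP4X1*, *ABCC11* and *HPD*, held 49, 15 and 16 cells and was under the size set for a comparison. In its 16 telogen cells, which had a median of 89151 UMIs, *SPINK9* was at 129 CPM (110 to 151), and 12 of them had a UMI. In its 49 anagen cells, with a median of 9588 UMIs, *SPINK9* was at 17.3 CPM (8.29 to 31.8). At 1500 UMIs, *SPINK9* was found in 2 of the 16 telogen cells and 1 of the 49 anagen cells, too few at that depth to be told from background. Unthinned, 8 of the 16 telogen cells had at least 10 *SPINK9* UMIs and held 127, with 23 in the highest.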
